A study of Mus musculus with 10 samples.

Results

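Receptors for vasopressin, oxytocin, vasoactive intestinal peptide (VIP), pituitary adenylate cyclase-activating polypeptide (PACAP) and galanin, with 3 of the peptides that bind them, were followed across sorted islet cells of adult mice. The members were chosen by name and comprise 10 of the 19213 gene entries in the deposited table: the receptor genes Avpr1b, Avpr1a, Oxtr, Vipr1, Vipr2, Adcyap1r1 and Galr1, and the precursor genes Adcyap1, Vip and Gal. All 10 were present. Of these, 7 passed the filter on low values and were tested, while Adcyap1r1, Adcyap1 and Vip did not.

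RNA was sequenced from 2 libraries of delta cells, which secrete somatostatin, 5 of beta cells, which secrete insulin, and 3 of alpha cells, which secrete glucagon. The mice were triple transgenic and carried mIns1-H2b-mCherry, a nuclear red reporter under the Ins1 promoter that marks beta cells, together with a floxed YFP allele and a Cre driver. Sst-Cre switched on YFP in delta cells in one cross and Gcg-cre did so in alpha cells in the other, so all 3 sorts came from animals with the red reporter, a Cre and the YFP allele. The islets that gave delta or alpha cells also gave the beta cells, but the labels do not state which beta library belongs to which cross. Each pool held islets from 10 to 12 animals of 1 sex, which were kept overnight in 5.5 mM glucose before dissociation and fluorescence sorting. Delta cells gave 1 female and 1 male library, beta cells 3 female and 2 male, and alpha cells 1 female and 2 male. Whether every library had a pool of its own is not stated, and the p-values then reflect only library-to-library spread, which may be technical.

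Values are RPKM, reads per kilobase of gene and scaled to the library's total, and so can be compared between genes as levels per length. Library totals recovered from the steps in the RPKM values lay between 16688097 and 26684086 reads. At 1 RPKM a gene had 16.7 to 26.7 reads per kilobase. Each sort was highest in its own hormone gene and also held transcripts of marker genes of other endocrine types. In the delta libraries, 4 marker genes of pancreatic polypeptide and epsilon cells summed to 44170 to 44800 RPKM. The 8 delta markers summed to 54660 to 63230 RPKM. Of those 4 genes, 2 were called higher and 1 lower in delta than in alpha cells. Gcg in the delta libraries stood at 8.33% and 9.11% of its alpha mean, Sst in the alpha libraries at 1.91% to 5.19% of its delta mean, and Ins2 at 0.648% to 1.20% of its beta mean in delta and alpha libraries. In bulk libraries fewer cells of a type and less RNA per cell cannot be told apart. Nor can expression of such markers by the sorted cells themselves be told apart from cells of another type.

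Vasopressin and oxytocin are closely related peptide hormones of the posterior pituitary, and their receptors V1a, V1b and OXTR act mainly through Gq proteins, phospholipase C and release of calcium from stores. VIP and PACAP are neuropeptides of one family that share the receptors encoded by Vipr1 and Vipr2, while the receptor encoded by Adcyap1r1 prefers PACAP. These receptors act mainly through Gs and cAMP, and nerve fibres of the islet release both peptides and enhance insulin secretion. Galanin, also a neuropeptide of islet nerves, lowers insulin release and acts in part on receptors coupled to Gi/o, among them that encoded by Galr1.

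The tested members fell into several patterns over the 3 cell types. Avpr1b and Oxtr were highest in alpha cells, with Oxtr also abundant in delta cells. Avpr1a was highest in delta cells, with 2.96% of that level in alpha and 0.545% in beta cells, and Galr1 was highest in beta cells, with 6.27% in alpha and 2.08% in delta cells. Vipr1 was present in all 3 types and lowest in delta cells, Vipr2 was low everywhere and highest in beta cells, and Gal was highest in alpha cells. Each difference was tested with limma on log2(RPKM + 1), a scale on which changes of low genes come out too small, and a gene is called at a Benjamini-Hochberg adjusted p under 0.05 over 12700 genes. In delta against beta cells, 3 of the 7 tested members were called higher and 3 lower, beside 37.4% and 13.3% of all genes tested. In alpha against beta cells 3 were higher and 2 lower, beside 23.7% and 30.3%. In delta against alpha cells 2 were higher and 4 lower, beside 32.1% and 5.89%. The comparisons share libraries, and with 50.7%, 54% and 38% of all genes called in either direction, a call alone sets no member apart. Of the genes called, 73.7% were higher in the comparison of delta with beta cells, 43.9% in that of alpha with beta cells and 84.5% in that of delta with alpha cells. These shares depended on scaling and were 49.8%, 48.9% and 57.8% under median-ratio scaling, 47.1%, 50.7% and 49% under quantile normalization, and 54.8%, 55% and 56.4% with hormone genes left out of the totals. No tested member changed direction under any of these. Libraries of the 2 types compared did not overlap in 6 of the 7 tested members between delta and beta cells, 6 between alpha and beta cells and 7 between delta and alpha cells, beside 62.8%, 50% and 71% of all genes. Called higher than in both other types were 3 members in alpha cells (Avpr1b, Oxtr and Gal), 2 in beta cells (Vipr2 and Galr1) and 1 in delta cells (Avpr1a), beside 4.14%, 11.4% and 16.6% of all genes. Avpr1a, Vipr2 and Galr1 reached the filter of 1 RPKM only in the cell type where they were highest, which favours their calls. All 3 kept their calls in the comparisons with that cell type when no filter was applied.

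**Figure D1:**
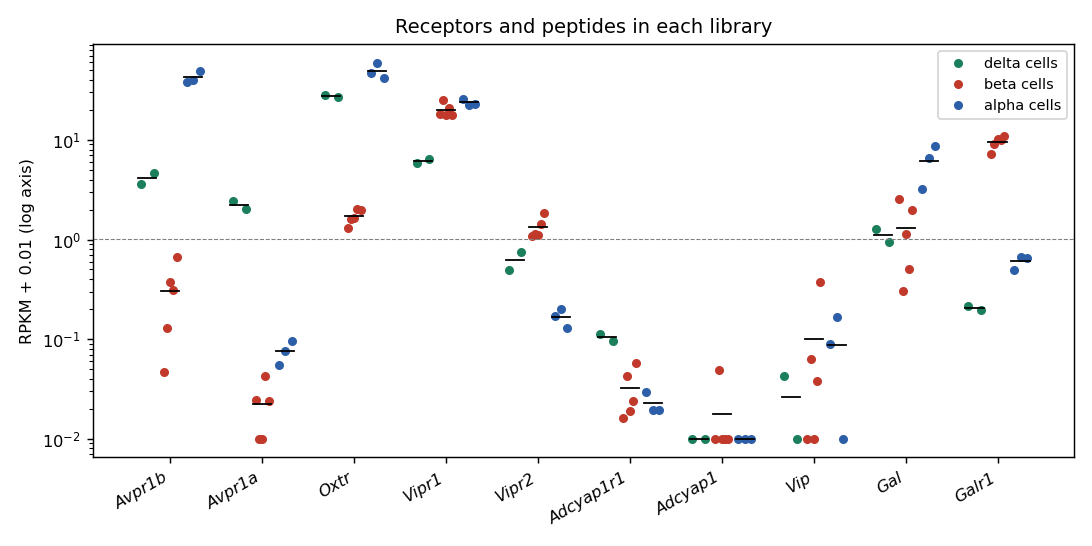
RPKM of the 10 members in each library, plotted as RPKM + 0.01 on a log axis, with 1 point per library (2 delta, 5 beta, 3 alpha) and a short line at the mean of each cell type. The dashed line marks 1 RPKM, the level used in the filter, and Adcyap1r1, Adcyap1 and Vip lie below it in all 10 libraries.

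Avpr1b encodes V1b, the vasopressin receptor known from pituitary corticotrophs, and lies on the plus strand of chromosome 1 (GRCm38, 131599239 to 131612000). It stood at 38.0, 40.1 and 49.1 RPKM in alpha libraries 1 to 3, from 2629 to 3554 reads each. In delta libraries 1 and 2 it stood at 3.57 and 4.62 RPKM, and in beta libraries it ranged from 0.0368 to 0.650 RPKM with a median of 0.301. The 3 types did not overlap, and the order was alpha, delta, beta. The mean of 42.4 ± 5.92 RPKM (SD, n = 3) in alpha cells was 144 times the beta mean of 0.295 ± 0.240 (n = 5). The log2 fold change of alpha over beta cells was 5.14 (SE 0.15, limma adjusted p = 2.9e-08), which ranked 20 by absolute size among the 12700 genes.

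Delta cells had 13.9 times the beta level of Avpr1b (log2 fold change 2.01, SE 0.17, limma adjusted p = 1.37e-05) and were lower than alpha cells (-3.13, SE 0.18, adjusted p = 2.36e-06). Avpr1b in the delta libraries was 8.41% and 10.9% of its alpha mean, beside 8.33% and 9.11% for the alpha hormone gene Gcg. Gcg is 1 of 9 alpha markers, of which 7 were called lower in delta than in alpha cells and 2 were not. Their median log2 fold change there was -2.68, and all 9 were called higher in delta than in beta cells. With an alpha share set by Gcg removed from each delta library, an alternative chosen after seeing the data, Avpr1b was left at 0.0346 and 0.760 RPKM in the delta libraries, and its difference from beta cells was no longer called (log2 fold change 0.11, adjusted p = 0.643). In the beta libraries Avpr1b lay between 0.0867% and 1.53% of its alpha mean, and Gcg between 0.182% and 1.12%. Beta replicate 5 was the highest and beta replicate 1 the lowest of the beta libraries for both genes. The part of alpha cells in the delta and beta values of Avpr1b was not tested.

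Oxtr encodes the oxytocin receptor (chromosome 6, 112473683 to 112489943, minus strand). It stood at 46.9, 59.5 and 42.1 RPKM in alpha libraries 1 to 3 and at 28.4 and 26.9 RPKM in delta libraries 1 and 2. Beta libraries ranged from 1.30 to 2.01 RPKM with a median of 1.63, from 132 to 240 reads each. The 3 types did not overlap. By mean RPKM, a level per length, Oxtr was the highest of the members in both alpha and delta cells, although in alpha replicate 3 Avpr1b stood higher. Alpha cells averaged 49.5 ± 9.00 RPKM, 29.1 times the beta mean of 1.70 ± 0.290 (log2 fold change 4.22, SE 0.14, limma adjusted p = 4.05e-08). Delta cells averaged 27.6 ± 1.09 RPKM, 16.2 times the beta mean (3.41, SE 0.16, adjusted p = 2.88e-07).

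Between delta and alpha cells Oxtr differed by less, with a log2 fold change of -0.81 (SE 0.17, limma adjusted p = 0.00541). That call was lost without delta replicate 2 (adjusted p = 0.0529). The log2 fold change was larger under median-ratio scaling (-1.11, limma adjusted p = 0.000281) and quantile normalization (-1.22, adjusted p = 0.000128). It was also larger with hormone genes left out of the totals (-1.13, adjusted p = 0.000412). In RPKM as listed, the delta level was 54.2% and 57.3% of the alpha mean, beside 8.33% and 9.11% for Gcg. After removal of the alpha share set by Gcg, 24.3 and 22.3 RPKM were left in the delta libraries, and the difference from beta cells was 3.17 on the log2 scale (adjusted p = 4.91e-07). That alternative takes Gcg alone as the measure of the alpha share, as though all Gcg reads in delta libraries came from alpha cells. The part of alpha cells in the delta values of Oxtr was not tested.

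Avpr1a encodes V1a, the vasopressin receptor of liver and vascular smooth muscle (chromosome 10, 122448499 to 122453452, plus strand). It stood at 2.41 and 2.04 RPKM in delta libraries 1 and 2, from 130 and 101 reads. In alpha libraries it stood at 0.0449, 0.0665 and 0.0859 RPKM, from 2 to 4 reads each, and in beta libraries at 0 to 0.0322 RPKM, from 4 reads over all 5 libraries. The delta libraries lay above all others. The delta mean of 2.22 ± 0.263 RPKM was 184 times the beta mean and 33.8 times the alpha mean (log2 fold changes 1.67, SE 0.09, limma adjusted p = 6.56e-07, and 1.60, SE 0.10, adjusted p = 2.53e-06). With a pseudocount of 0.1 in place of 1 RPKM, the first was 4.38.

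The alpha libraries lay above the beta libraries in Avpr1a, but the difference was not called by limma (log2 fold change 0.07, adjusted p = 0.467). The alpha level was 2.02% to 3.86% of the delta mean, beside 1.91% to 5.19% for Sst in the same libraries. Alpha replicate 1 was the highest for Sst and the lowest for Avpr1a, and the part of delta cells in the alpha values was not tested. Removal of the alpha share set by Gcg left 2.03 RPKM in delta replicate 2, the lower of the pair. Markers of pancreatic polypeptide and epsilon cells, high in the delta libraries, summed to 809 to 1560 RPKM in beta and 9607 to 15260 RPKM in alpha libraries. In delta cells 3 of the 4 were called higher than in beta cells and 2 higher and 1 lower than in alpha cells, with none at 0 in all libraries, and their part in the Avpr1a level was not tested. Avpr1a passed the filter through its 2 delta libraries only, so no fit without a delta library tested it. An antisense gene of the annotation, Gm48877, runs across Avpr1a on the opposite strand but shares 0 exon bases with it.

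The vasopressin and oxytocin genes themselves were almost undetected. Avp was listed at 0.0752 RPKM in beta replicate 1 and at 0 in the other libraries, and Oxt at 0.104 RPKM in beta replicate 3, 0.110 RPKM in alpha replicate 2 and 0 elsewhere. Avpr2, the renal vasopressin receptor, stood at most at 0.0981 RPKM. The receptor transcripts thus reached 59.5 RPKM in libraries where both ligand genes were at or near 0.

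The promoters of Avpr1a and Vipr1 are printed here because these receptors ran in opposite directions in delta cells, where Avpr1a was highest and Vipr1 lowest. The lines give the 250 bases before the annotated start, 5′ to 3′ on the gene's strand, from RefSeq (GRCm38.p6), with motif matches in capitals, written as CCGCCC where the GC box lies on the opposite strand. The windows are chr10:122448249-122448498 and chr9:121642466-121642715, both on the plus strand.
Avpr1a: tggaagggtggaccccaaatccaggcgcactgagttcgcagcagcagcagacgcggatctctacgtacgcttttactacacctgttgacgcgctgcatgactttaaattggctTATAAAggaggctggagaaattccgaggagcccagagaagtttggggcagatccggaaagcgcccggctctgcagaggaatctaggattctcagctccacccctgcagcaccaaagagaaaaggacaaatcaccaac
Vipr1: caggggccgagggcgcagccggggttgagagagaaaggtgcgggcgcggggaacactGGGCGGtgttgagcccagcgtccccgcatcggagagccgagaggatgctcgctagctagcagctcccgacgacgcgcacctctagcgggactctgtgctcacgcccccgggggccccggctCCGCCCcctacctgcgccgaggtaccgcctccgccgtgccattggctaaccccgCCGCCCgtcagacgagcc
Motifs were searched on both strands, and no matches overlapped. The GC box GGGCGG, bound by Sp factors, matched 3 times in the Vipr1 window and 0 times in that of Avpr1a. It is held by 32.7% of all 32851 promoters of this length, and also matched in the windows of Oxtr, Vipr2, Adcyap1r1 and Gal. The TATA box TATAAA matched 1 time in the Avpr1a window, 137 bases before the start, and 12.4% of all promoters hold it. It also matched in the windows of Adcyap1 and Vip. The cAMP response element TGACGTCA (1.55% of promoters), the forkhead motif TGTTTAC (3.17%) and the Maf motif TGCTGAC (3.81%) had no match in the windows of Avpr1a and Vipr1. Whether any motif bears on the levels was not tested. Entries were read for 8 of the 10 members. No entry for Avpr1b was matched, and the Galr1 promoter was not used here. The RefSeq start of Oxtr lies inside the gene as GENCODE places it, so its window is not printed.

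**Figure D2:**
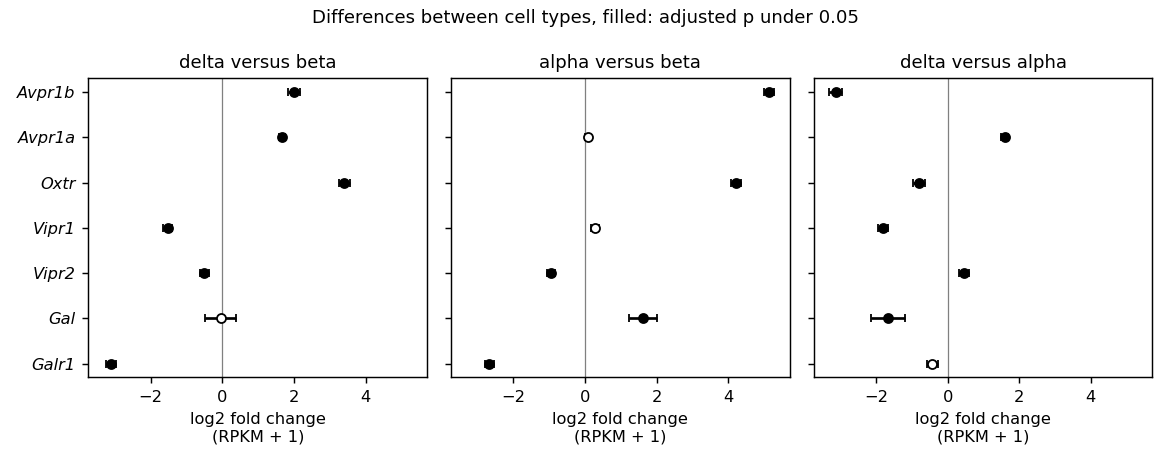
Log2 fold change of the 7 tested members on the log2(RPKM + 1) scale in each comparison of cell types, with bars of 1 SE from the limma fit of all 10 libraries. Filled points have an adjusted p under 0.05; Avpr1b spans the widest range, from -3.13 in delta against alpha cells to 5.14 in alpha against beta cells.

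Vipr1 encodes VPAC1, a receptor for VIP and PACAP (chromosome 9, 121642716 to 121672954, plus strand). It stood at 25.8, 22.4 and 23.1 RPKM in alpha libraries 1 to 3, at 17.7 to 25.0 RPKM with a median of 18.4 in beta libraries, and at 5.88 and 6.42 RPKM in delta libraries 1 and 2. Alpha and beta libraries overlapped, and both lay above the delta libraries. The delta mean of 6.15 ± 0.375 RPKM was 3.25 times lower than the beta mean of 20.0 ± 3.11 (log2 fold change -1.53, SE 0.13, limma adjusted p = 1.96e-05). It was 3.86 times lower than the alpha mean of 23.8 ± 1.80 (-1.81, SE 0.15, adjusted p = 1.79e-05). For alpha over beta cells the log2 value was 0.28 (SE 0.12, limma adjusted p = 0.0781), short of the threshold. It was called as higher in alpha cells under quantile normalization (adjusted p = 0.0206), with hormone genes left out of the library totals (adjusted p = 0.0443) and without beta replicate 2 (adjusted p = 0.0184).

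Vipr2 encodes VPAC2, the other receptor shared by VIP and PACAP (chromosome 12, 116077726 to 116146261, plus strand). Beta libraries ranged from 1.08 to 1.84 RPKM with a median of 1.14, from 66 to 166 reads. Delta libraries stood at 0.482 and 0.732 RPKM and alpha libraries at 0.159, 0.193 and 0.119 RPKM, from 7 to 11 reads each. The 3 types did not overlap. The beta mean of 1.31 ± 0.323 RPKM was 8.37 times the alpha mean (log2 fold change of alpha over beta -0.95, SE 0.12, limma adjusted p = 0.000132) and 2.16 times the delta mean (-0.51, SE 0.13, adjusted p = 0.0106). The delta to beta call was lost without delta replicate 1 (adjusted p = 0.130) and without delta replicate 2 (adjusted p = 0.0662).

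Between delta and alpha cells the Vipr2 difference of 0.45 on the log2 scale (SE 0.14, limma adjusted p = 0.0338) was weak. It was not called under median-ratio scaling (adjusted p = 0.0767), under quantile normalization (adjusted p = 0.214), with hormone genes left out of the totals (adjusted p = 0.0585), or without delta replicate 1 (0.148), delta replicate 2 (0.196), alpha replicate 1 (0.0537) or alpha replicate 3 (0.160). Vipr1 and Vipr2 thus ran in different orders, with the means of Vipr1 at 25.9% of the highest type in delta and 84.2% in beta cells, and those of Vipr2 at 46.2% in delta and 11.9% in alpha cells. Per length, Vipr1 was the more abundant of the pair in every library. The summed markers of immune cells, in which both receptors are known, ran in the same order as Vipr2. The 7 genes summed to 102.1 to 186 RPKM (beta), 75.5 to 88.7 RPKM (delta) and 22.6 to 41.3 RPKM (alpha) per library. Of the 5 tested, 4 were called lower and 1, C1qa, higher in the delta libraries than in beta cells, and 5 lower in alpha cells. Between delta and alpha cells only 1 was called, as higher in delta cells, and 4 were not. Their median log2 fold change there was 0.23, beside 0.26 over all genes. Ptprc, the pan-leukocyte marker, stood at 0.202 to 0.484 RPKM in beta libraries and at 0 to 0.0101 in the others. The part of immune cells in the Vipr2 and Vipr1 levels of beta libraries was not tested. The antisense gene Gm20658 runs across Vipr2 and shares 0 exon bases with it.

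Adcyap1r1 encodes PAC1, the receptor that prefers PACAP (chromosome 6, 55451978 to 55501451, plus strand). It was near the limit of detection in all libraries, at 0.103 and 0.0862 RPKM in delta (13 and 10 reads), 0.00611 to 0.0480 RPKM in beta (1 to 8 reads) and 0.00918 to 0.0192 RPKM in alpha libraries (1 or 2 reads). Both delta libraries lay above the others. Without the filter on low values limma called it higher in delta than in beta cells (log2 fold change 0.10, adjusted p = 0.0059) and than in alpha cells (0.11, adjusted p = 0.00703). These levels rest on 23 reads in delta, 17 in beta and 4 in alpha cells in all.

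The peptide genes Vip and Adcyap1 were hardly seen. Vip (chromosome 10, 5639218 to 5647617) had 15 reads in beta replicate 5, or 0.368 RPKM, and 0 to 4 reads in each other library. Adcyap1, the PACAP precursor gene (chromosome 17, 93199017 to 93206537), was listed at 0.0391 RPKM in beta replicate 2 and at 0 in the other 9 libraries. With a single library above 0, its reads and its counted length cannot be recovered separately, so no limit is given for the libraries at 0. For Vip, the RPKM steps give a counted length of 1527 bases beside 3402 exon bases in GENCODE. Both peptides are made by neurons, and 14 neuron markers summed to 152.1 to 163.2 RPKM in delta, 109.6 to 181.7 in beta and 121.9 to 144.2 in alpha libraries. Of these, 6 were tested, with 2 called higher and 2 lower in delta against beta cells, 1 and 3 in alpha against beta cells and 3 and 0 in delta against alpha cells. Snap25, at 47.1 to 105.8 RPKM, and Nefm, at 3.59 to 46.4 RPKM, made up much of the sum, and endocrine cells also express genes of this kind. The markers of autonomic neurons Phox2a, Chat, Dbh and Slc18a3 stood at most at 0.0422 RPKM, and the part of neurons in the Vip and Adcyap1 values was not tested.

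Among other receptors of the class to which VPAC1, VPAC2 and PAC1 belong, Glp1r, the GLP-1 receptor, had a mean of 150.5 RPKM in beta cells, beside 39.9 RPKM (delta) and 2.47 RPKM (alpha). Gcgr, the glucagon receptor, followed the same order with means of 15.4, 5.62 and 0.264 RPKM. Both were lower in alpha than in beta cells (log2 fold changes -5.32 and -3.73, limma adjusted p = 3.18e-08 and 4.05e-08). Gipr, the receptor of the incretin GIP, had means of 24.2 RPKM (beta), 13.7 RPKM (delta) and 19.7 RPKM (alpha) and was not called between alpha and beta cells (adjusted p = 0.341). In alpha cells, Vipr1 at 23.8 RPKM was therefore the most abundant of these receptors by mean, with Gipr next and their libraries overlapping. Sctr, the secretin receptor, had 0 to 2 reads per library.

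**Figure D3:**
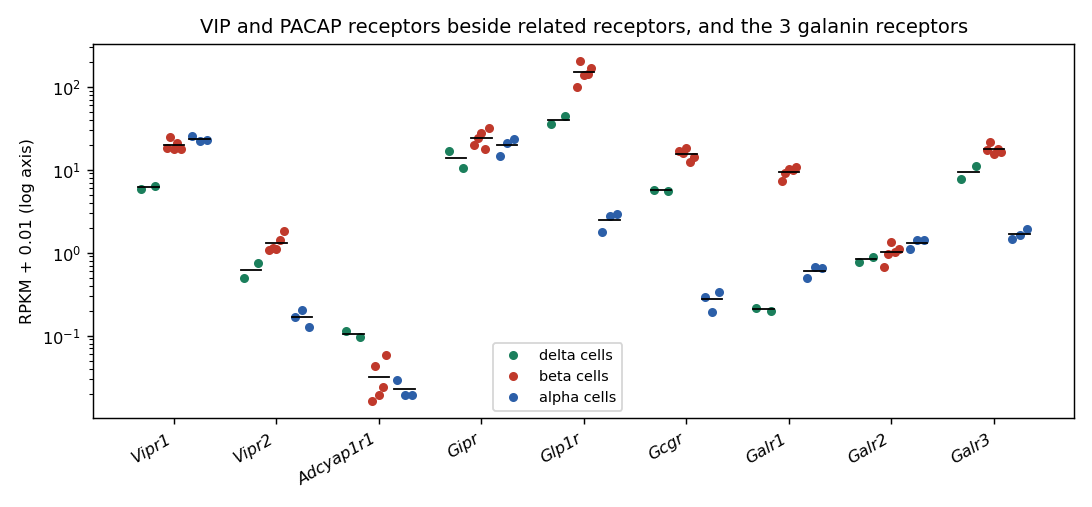
RPKM + 0.01 on a log axis in each library for the VIP and PACAP receptors, 3 related receptors and the 3 galanin receptors, with 1 point per library and a line at each cell type mean. Galr1, Glp1r and Gcgr separate beta from alpha cells, while Vipr1 and Gipr overlap between them.

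Galr1 encodes a Gi/o-coupled galanin receptor (chromosome 18, 82392380 to 82406777, minus strand). Beta libraries ranged from 7.23 to 10.8 RPKM with a median of 9.95, from 520 to 831 reads. Alpha libraries stood at 0.480, 0.660 and 0.639 RPKM and delta libraries at 0.207 and 0.188 RPKM, and no types overlapped. The beta mean of 9.46 ± 1.40 RPKM was 48 times the delta mean (log2 fold change of delta over beta -3.11, SE 0.14, limma adjusted p = 2.88e-07) and 16 times the alpha mean (-2.68, SE 0.13, adjusted p = 3.55e-07). The shares of the beta mean were 5.07% to 6.98% in alpha and 1.98% and 2.19% in delta libraries. Ins2 stood at 0.648% to 0.821% in alpha and 0.851% and 1.20% in delta libraries. The part of beta cells in the alpha and delta values of Galr1 was not tested.

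Delta and alpha cells did not differ in Galr1 past the threshold (log2 fold change -0.43, SE 0.16, limma adjusted p = 0.0566). The difference was called as lower in delta cells with a pseudocount of 0.1 (adjusted p = 0.00216) or 0.5 (0.0167), under median-ratio scaling (0.00833) and quantile normalization (0.00356), with hormone genes left out of the totals (0.00732), in a fit of the delta and alpha libraries alone (0.0350), without a mean-variance trend (0.0483) and without beta replicate 1 (0.0238). After removal of the alpha share set by Gcg it was called as well (adjusted p = 0.0386).

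The other galanin receptors did not follow Galr1 throughout. Galr3 had means of 17.5 RPKM (beta), 9.43 RPKM (delta) and 1.67 RPKM (alpha), lower than beta in both (log2 fold changes -0.81 in delta, limma adjusted p = 0.000845, and -2.73 in alpha, adjusted p = 1.69e-07). It was thus higher in delta than in alpha cells (1.92, adjusted p = 9.13e-06), the reverse of the order of the Galr1 means. Galr2 had means of 0.827 RPKM (delta), 1.02 RPKM (beta) and 1.31 RPKM (alpha), and none of its 3 comparisons was called. Per length, Galr3 and Galr1 were the main galanin receptor transcripts of beta cells and Galr3 that of delta cells, while in alpha cells Galr3 and Galr2 lay close together.

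Gal encodes the galanin precursor (chromosome 19, 3409915 to 3414544, minus strand). It stood at 3.17, 6.53 and 8.78 RPKM in alpha libraries 1 to 3, at 0.293 to 2.56 RPKM with a median of 1.13 in beta libraries and at 1.27 and 0.924 RPKM in delta libraries 1 and 2. These rest on few reads, 37 to 107 in alpha, 5 to 47 in beta and 18 and 12 in delta libraries. Alpha libraries lay above the rest, and delta and beta libraries overlapped. The alpha mean of 6.16 ± 2.82 RPKM was 4.77 times the beta mean of 1.29 ± 0.970 (log2 fold change 1.63, SE 0.39, limma adjusted p = 0.00656) and 5.60 times the delta mean (log2 fold change of delta over alpha -1.67, SE 0.48, adjusted p = 0.0218). Delta and beta cells were not told apart (-0.04, SE 0.43, adjusted p = 0.947).

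The alpha to beta call of Gal was lost without alpha replicate 3, the highest library (log2 fold change 1.09, adjusted p = 0.0794). The delta to alpha call was lost without delta replicate 1 (adjusted p = 0.119), delta replicate 2 (0.113), alpha replicate 2 (0.0533) or alpha replicate 3 (0.113) and with a pseudocount of 0.1 (0.0519). In beta libraries Gal stood at 4.75% to 41.6% of its alpha mean, while Gcg stood at 0.182% to 1.12%. The part of alpha cells in the beta values of Gal was not tested.

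**Figure D4:**
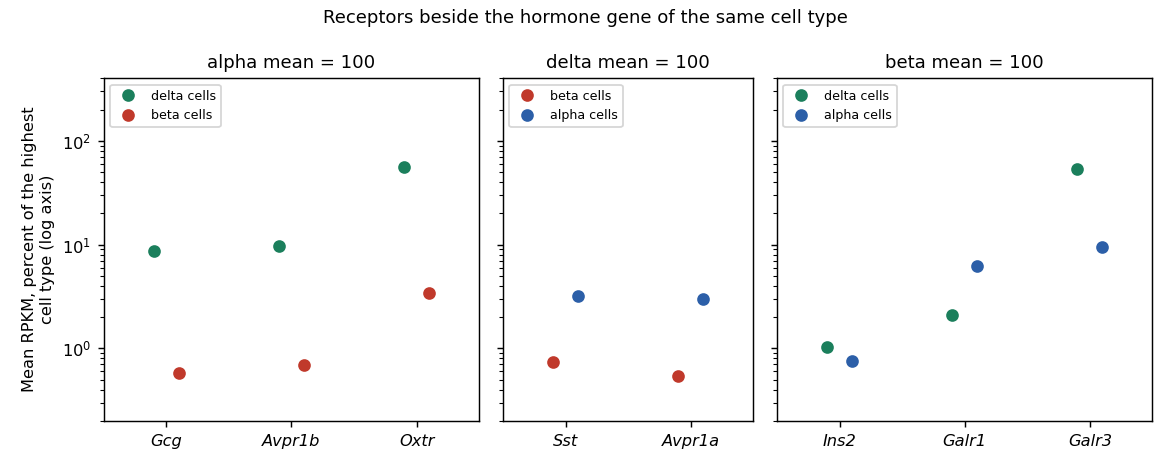
Mean RPKM in the 2 other cell types as a percentage of the mean in the highest cell type, on a log axis, for a hormone gene and receptors highest in the same type. Avpr1b lies beside Gcg and Avpr1a beside Sst, whereas Oxtr and Galr3 in delta cells lie far above the hormone gene of their panel. Galr1 and Galr3 in alpha cells and Oxtr in beta cells also lie above that gene. The part of other cell types in these levels was not tested.

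Sex was tested in the same fit. Of the 7 tested members limma called 0 between male and female libraries, and 0 had an unadjusted p under 0.05, beside 634 of all 12700 genes at that unadjusted p and 6 called (0.0472%, with 0.0315% higher and 0.0157% lower in males). The largest difference was that of Avpr1b (log2 fold change of male over female -0.24, SE 0.13, adjusted p = 0.770). The difference between alpha and beta cells was also compared between the sexes in those 8 libraries. Limma called 0 of 7 members and 0% of all genes, with 0 members and 147 genes at an unadjusted p under 0.05. This test rests on 1 female alpha library.

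For each member called in a comparison of cell types, the genes most alike in pattern were found by Pearson's correlation of log2(RPKM + 1) over the 10 libraries, which mostly reflects the 3 cell types. Closest to Avpr1b were Sstr2, a somatostatin receptor (r = 0.997), and Mamld1. For Avpr1a they were Ppp1r17, Sox11 and Tox2 (r = 0.998 each), and for Oxtr Rcn3, Bcl11a (r = 0.997 each) and Cfi. Vipr1 was closest to the kinase gene Prkd1 (r = 0.982), the receptor gene Ror2 and Gramd1a, and Vipr2 to the mitochondrial genes Pdhb (r = 0.987) and Mtch2 and to Nabp1. Galr1 was closest to G6pc2, the islet glucose-6-phosphatase (r = 0.996), Papss2 and Galnt9, and Gal to 4931440P22Rik (r = 0.938), Eda2r and Ankrd13b. These are descriptions over libraries that share cell type and depth.

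Genes of the pathways downstream were counted from lists. Of all genes tested, 37.4% were called higher and 13.3% lower in delta against beta cells. The shares were 23.7% and 30.3% in alpha against beta cells and 32.1% and 5.89% in delta against alpha cells. Each list's counts are to be read beside these shares. Under median-ratio scaling the median over all genes moved from 0.253 to -0.005 in delta against beta cells and from 0.260 to -0.013 in delta against alpha cells, so each list's counts are to be read beside those medians. The list counts for delta cells also rest on both delta libraries, and without 1 of them they fell as given below. Of 14 tested genes of the Gq and phospholipase C pathway, through which Avpr1b, Avpr1a and Oxtr signal, delta against beta cells gave 7 higher and 2 lower, with a median log2 fold change of 0.44 beside 0.253 over all genes. In alpha against beta cells 4 were higher and 4 lower (median -0.10 beside -0.024), and in delta against alpha cells 7 and 1 (0.45 beside 0.260). Under median-ratio scaling the counts were 5 and 4 in delta against beta cells and 3 and 1 in delta against alpha cells. The higher counts fell from 7 to 4 without delta replicate 1 in delta against beta cells, and from 7 to 3 without either delta library in delta against alpha cells. Itpr1, an IP3 receptor of the calcium store, had means of 45.1 RPKM (alpha), 80.2 RPKM (delta) and 5.70 RPKM (beta) (log2 fold changes over beta 2.92, limma adjusted p = 3.88e-06, and 3.68, adjusted p = 1.87e-06). Plcb4, a phospholipase C, was higher in delta than in beta cells (2.01, adjusted p = 0.000908), and Itpr2 was lower in both other types than in beta cells (-1.01 in delta and -1.31 in alpha). Itpr1 thus ran in the same direction as Oxtr in the comparisons with beta cells, but was higher in delta than in alpha cells (0.77, adjusted p = 0.0370).

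Of 24 tested genes of the Gs and cAMP pathway, used by the VIP and PACAP receptors, delta against beta cells gave 10 higher and 0 lower (median 0.40 beside 0.253). In alpha against beta cells 7 were higher and 7 lower (0.07 beside -0.024), and in delta against alpha cells 10 and 2 (0.34 beside 0.260). Under median-ratio scaling the counts were 9 and 3 in delta against beta cells and 6 and 3 in delta against alpha cells. Without delta replicate 1 the higher counts were 4 and 3 in the comparisons of delta with beta and alpha cells, and without delta replicate 2 they were 6 and 5, of 21 genes tested. Adcy8, an adenylate cyclase, averaged 7.42 RPKM in delta against 0.102 in beta and 0.179 in alpha cells. Rapgef3, a cAMP-activated exchange factor, averaged 8.79 RPKM in delta against 0.144 and 0.724. Both were called higher in delta than in each other type, whereas Vipr1 was lower there. Gnas, which encodes the Gs alpha subunit and shares its locus with an antisense gene that unstranded libraries do not tell apart, was higher in alpha than in beta cells (2.23, limma adjusted p = 6.1e-08).

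Gi/o proteins, GIRK channels and their regulators, used by the receptor that Galr1 encodes, were counted next. Of 9 tested genes, delta against beta cells gave 5 higher and 1 lower (median 0.70). There were 4 and 4 in alpha against beta cells (0.00) and 4 and 2 in delta against alpha cells (0.39). Gnai2, a Gi subunit, had means of 515.8 RPKM (beta), 287 RPKM (delta) and 148.5 RPKM (alpha), so that it was highest where Galr1 was (log2 fold changes over beta -0.85 and -1.81, limma adjusted p = 0.000248 and 7.93e-07). Kcnj3, a GIRK channel subunit, ran the other way, with means of 0.0744 RPKM (beta), 4.25 RPKM (delta) and 11.2 RPKM (alpha) (2.30 and 3.52, adjusted p = 1.03e-06 and 4.04e-08). Gi subunits did not run alike. Gnai1 was higher in alpha than in beta cells (3.19, limma adjusted p = 1.35e-05) and lower in delta than in alpha cells (-2.485, adjusted p = 0.000388). Gnai3 was lower in alpha than in beta cells (-0.95, adjusted p = 0.0149).

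Of 9 tested genes of peptide processing and breakdown, delta against beta cells gave 5 higher and 2 lower (median 0.53), 3 and 4 in alpha against beta cells (0.09) and 4 and 3 in delta against alpha cells (0.38). The first of these counts was 0 under median-ratio scaling and 1 without either delta library. Pcsk1, a convertase that cleaves peptide precursors, had means of 250 RPKM (beta), 28.8 RPKM (delta) and 3.16 RPKM (alpha), lowest where Gal was highest, while Pcsk2 averaged 1164 RPKM in alpha and 752 in beta cells (0.67, limma adjusted p = 0.00338). Of 6 tested genes of receptor desensitisation, delta against beta cells gave 3 higher and 2 lower (median 0.17), 0 and 3 in alpha against beta cells (-0.22) and 2 and 2 in delta against alpha cells (0.34). In delta against beta cells, median-ratio scaling gave 1 higher and 3 lower with a median of -0.13, and 0 were higher without either delta library. Arrb1, a beta-arrestin, was higher in delta than in beta cells (1.56, adjusted p = 1.54e-06) and Grk5, a receptor kinase, lower (-2.11, adjusted p = 1.09e-05). Of 9 tested relatives of the members, delta against beta cells gave 3 higher and 5 lower (median -0.42), 1 and 4 in alpha against beta cells (-0.28) and 5 and 1 in delta against alpha cells (1.43). Under median-ratio scaling these were 1 and 5 in delta against beta cells and 5 and 3 in delta against alpha cells, and without delta replicate 2 the first pair was 1 and 3.

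**Figure D5:**
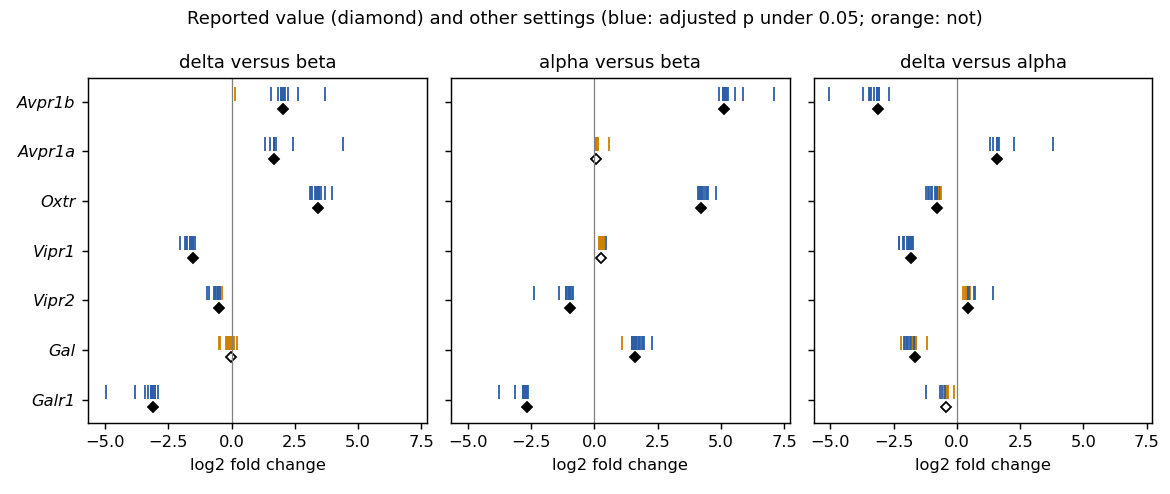
Log2 fold change of the 7 tested members as reported (diamond, filled where the adjusted p is under 0.05) and under each other setting (ticks, blue where called and orange where not). The only member to change sign was Gal between delta and beta cells, which was not called under any setting, and the calls that changed were those of Avpr1b and Vipr2 between delta and beta cells, Vipr1 and Gal between alpha and beta cells, and Oxtr, Vipr2, Gal and Galr1 between delta and alpha cells.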

How the data were processed

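The values are RPKM per gene and library, as deposited by the authors. Reads were aligned with STAR 2.4 and counted with featureCounts, and edgeR 3.12.0 and the build GRCm38.p3 are named, per the submitters' processing notes. Libraries were made with a kit that keeps no strand, per the labels' protocols. From the RPKM steps, library totals, reads and gene lengths were recovered, and the sum of recovered reads was 99.996% of each total. Totals set the precision and ranged from 16688097 to 26684086 reads. No count test was run.

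Genes with at least 1 RPKM in at least 2 libraries (12700 of 19213) were tested with limma 3.58.1 in R 4.3.3 on log2(RPKM + 1), with cell type and sex as terms, a mean-variance trend, all 10 libraries and 6 residual degrees of freedom. The test for a cell type difference between the sexes used the 8 alpha and beta libraries. P-values were adjusted by Benjamini-Hochberg over all genes tested. The procedure was tested on simulated data. Members and lists were chosen with earlier results of these data known. Genes of a list were named from up to 2 called in each direction with the largest change and up to 1 uncalled gene with the highest mean RPKM in each comparison. Galr3, Itpr1 between delta and alpha cells, the genes too low to be tested and the marker genes were named outside that rule, after their values were seen. For each member called between cell types, the 3 genes with the highest correlation were named as most alike, except 1 that is not reported here. Alternatives were other pseudocounts, filters, scalings and models, each library left out, and, chosen after seeing the data, an alpha share set by Gcg removed from delta libraries and pairs of libraries read from the titles as a block. Coordinates are from GENCODE vM21 (GRCm38).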

Additional observations from a re-analysis of the deposited data

Results flagged for a closer look

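Vip was at 0.368 RPKM in beta replicate 5, from 15 reads, while the other 4 beta libraries had 0 to 2 reads. It was picked out because the gap to the next library was large relative to the range of the 5 beta libraries. Adcyap1 was at 0.0391 RPKM in beta replicate 2 and at 0 in the other beta libraries. With 4 libraries at 0 any value above 0 in the last meets the same criterion, so this says nothing of that library. Among values drawn from 1 normal distribution the criterion picks out about 1 in 20 groups, a rate that does not hold at so few reads. Neither gene passed the filter on low values.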

How the results depend on the processing

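Of the values of the 7 tested members under other settings, sex included, 480 stayed on the same side of the threshold, 12 gained and 19 lost a call, and 0 called values changed sign. Adcyap1r1, tested only without the filter, was called there in delta against both other types. With a filter on mean RPKM, under which Avpr1a and Vipr2 were not tested, 1 member was lower in alpha than in beta cells and 0 were higher in delta than in alpha cells. That last count was 1 under median-ratio scaling, quantile normalization and with hormone genes left out of the totals. Over all genes, delta against beta cells gave 4750 higher and 1692 lower, against 3068 and 3098 under median-ratio scaling, 2852 and 3200 under quantile normalization, and 2853 lower with hormone genes left out. Delta against alpha cells gave 4076 higher and 748 lower, against 1816 and 1325, 1963 and 2040, and 1893 and 1461 in the same order. The cause was not tested. Prkacb between alpha and beta cells moved from -0.03 to 0.34 under quantile normalization (limma adjusted p = 0.0199).

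With each library left out in turn, the members higher and lower were 2 to 3 and 2 to 3 in delta against beta cells, 2 to 4 and 2 to 2 in alpha against beta cells, and 0 to 2 and 2 to 5 in delta against alpha cells. The ranges over all genes were 1974 to 4990 and 907 to 1671, 1806 to 3219 and 2788 to 3983, and 1850 to 4597 and 462 to 786. The lowest counts came without delta replicate 1 (1974 higher and 907 lower than beta, 1850 higher than alpha), without delta replicate 2 (462 lower than alpha) and, for genes higher in alpha than in beta cells, without alpha replicate 3 (1806). A lone delta library is assumed there to vary like the other groups. The sex difference between alpha and beta cells could not be fitted without alpha replicate 3. Consecutive numbers in the titles put 4 beta libraries beside a delta or alpha library of the same sex, but the labels do not state that these share islets, and deviations from the group means correlated at 0.37, 0.27 and 0.46 in 3 pairs and at 0 in beta 1 and delta 1. A fit with these pairs as a replicate block, chosen after seeing the data (8 libraries, 2 residual degrees of freedom), gave 6169 genes higher and 1736 lower in delta against beta, 2244 and 3494 in alpha against beta and 4749 and 594 in delta against alpha cells. Under the block Vipr2 between delta and beta cells (-0.40, limma adjusted p = 0.0687) and Oxtr between delta and alpha cells (-0.65, adjusted p = 0.0774) were not called, and no other call of a member changed. Depth limits Adcyap1r1, Adcyap1 and Vip, the first and last with at most 15 reads in a library.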
